A study of Homo sapiens with 16 samples.

Results

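Mitochondrial protein import and folding genes encode the translocases, chaperones and peptidases that bring nuclear-encoded proteins into mitochondria and fold them there. Members were all genes whose symbol begins with TOMM or TIMM and a digit, together with SAMM50, MTX1, MTX2, CHCHD4, GFER, GRPEL1, DNAJC19, PMPCA, PMPCB, HSPA9, HSPD1 and HSPE1, a rule that used no measured value. It found 37 of the 18991 genes in the count table, and 36 of these passed the filter on low counts with 12517 genes in all. PAM16, which the rule also names, was not analysed here. TIMM22 was not tested because it held 9 counts over the 16 libraries, and its interval is overlapped by ABR in the annotation.

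Cas9-expressing MOLM13 cells, an acute myeloid leukemia line, carried either a guide against YBX1 (sgYBX1) or a control guide (sgLUC) and were collected at day 14. Both guides were used in puromycin-selected bulk cells rather than in a clone, and 1 YBX1 guide was sequenced. Total RNA and polysomal RNA, the pooled heavy fractions of a sucrose gradient run after cycloheximide, were poly(A)-selected and sequenced in 4 replicates of each guide and fraction, which gave 16 libraries in the groups sgLUC total, sgYBX1 total, sgLUC polysomal and sgYBX1 polysomal. YBX1 encodes an RNA-binding cold-shock protein, and the comparison asks how its loss alters mRNA levels and mRNA association with polysomes.

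Most mitochondrial proteins are made on cytosolic ribosomes and enter through the TOM complex of the outer membrane, where TOMM20, TOMM22 and TOMM70 act as receptors and TOMM40 forms the channel. The SAM complex inserts barrel-shaped proteins into the outer membrane, small TIM chaperones escort hydrophobic cargo across the intermembrane space, and the TIM22 and TIM23 translocases serve the inner membrane. In the matrix, TIMM44 tethers the HSPA9 motor to the TIM23 channel, PMPCA and PMPCB cleave presequences, and HSPD1 and HSPE1 form the folding chaperonin.

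Library totals ran from 38326270 to 66164414 counts, and the members took between 0.472% and 0.583% of them. The targeted mRNA, YBX1, stood at 58.6% of the control level in total RNA and at 73.7% in polysomal RNA, and the groups did not overlap. The exact, 2-sided permutation test gave p = 0.0286 for either fraction, which is the lower limit with 4 libraries a side. Of 8 myeloid markers, all but KIT were above 1 CPM. Their sum was 3479 to 3700 CPM in sgLUC total and 2641 to 2741 CPM in sgYBX1 total libraries, and 1554 to 1777 CPM and 1156 to 1264 CPM in the polysomal ones. The lower sum in sgYBX1 total libraries came mainly from LYZ, a granule enzyme, which was at a mean of 2256 CPM with sgLUC and 1282 CPM with sgYBX1 (n = 4, log2 change -0.81 ± 0.04). In total RNA MPO and KIT also fell, CSF3R rose by 0.11 ± 0.04, and CD33, CEBPA, FLT3 and SPI1 did not pass the test. In polysomal RNA LYZ, MPO, CEBPA and CD33 fell. Among 10 markers of other cell types, 8 or 9 were below 1 CPM in every group, with the T-cell marker CD3E and the erythroid marker HBB at or near 0. The sum of these 10, mostly from KRT18, was 5.18 to 6.25 CPM in sgLUC total and 7.17 to 8.66 CPM in sgYBX1 total libraries, and 24.2 to 30.0 CPM and 34.0 to 44.0 CPM in the polysomal ones. The part of either marker list in the results was not tested. Replicates were more variable in polysomal RNA (biological coefficient of variation 0.188) than in total RNA (0.0478).

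Levels are CPM, the counts scaled to a common library size, after TMM scaling, which corrects for differences in library composition, given per library in the order of replicates 1 to 4. Changes are log2 fold changes ± SE from the quasi-likelihood test of edgeR, with p-values adjusted by Benjamini-Hochberg over the 12517 genes, and called means an adjusted p below 0.05. No spike-in was described, so every level is relative to the rest of its library. Fewer cells carrying an mRNA and less of that mRNA per cell cannot be told apart.

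The start codons of the members the results turn on are printed here because polysomal RNA reports on ribosome loading. Each line gives the 10 bases before the start codon, the start codon in capitals and the 7 bases after it, from the principal transcript of GENCODE 29 on GRCh38. The base 3 before the start codon and the base just after it are the positions of the Kozak context, where a purine and a G are favoured.
TIMM44: attctccaacATGgcggcgg
HSPD1: cagccgagaaATGcttcggt
HSPE1: ggagggagtaATGgcaggac
SAMM50: agagggaaccATGgggactg
MTX2: cccagccgacATGtctctag
TOMM22: ccctacagtcATGgctgccg
TOMM5: cagagccgcgATGttccgga
TIMM8B: cccgtcgcgcATGcgcaaac
TIMM23: ctgcgataccATGgaaggag
TIMM23B: ctgcgataccATGgaaggag
Of 34 tested members with such a sequence, 31 had a purine 3 bases before the start codon and 26 had a G just after it. Both features were present in 76.5% of the members and in 45.4% of 11968 tested genes, which is a description with no test. TIMM44, which rose in polysomal RNA, carries both features, as do HSPE1, SAMM50 and TOMM22, which fell. HSPD1, which rose, and MTX2 and TOMM5, which fell, have the purine without the G, and TIMM8B has neither. The contexts of TIMM23 and TIMM23B are identical over these 20 bases, and reads from these near-identical genes could be assigned to either.

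Per kilobase of transcript, the most abundant members in sgLUC total RNA were TOMM6, a small TOM subunit, at 458 ± 10.8 CPM per kb (SD, n = 4), HSPD1 at 378 ± 21.5 and HSPA9 at 186 ± 8.03. TOMM40 followed at 144 ± 9.54 CPM per kb. The ranges of these 4 over libraries did not overlap, whereas TOMM5 at 102 ± 4.14 and TIMM50 at 95.0 ± 3.99 CPM per kb, the next in order, did. TOMM20L, a TOMM20 paralog, was lowest of those tested at 0.287 ± 0.131 CPM per kb. HSPE1 was at 39.9 ± 2.67 CPM per kb, far under its partner HSPD1, and its level is uncertain because the count table also lists the overlapping HSPE1-MOB4 and the annotation names 28 HSPE1 pseudogenes. HSPD1 has 22 named pseudogenes. In all, 10 members are overlapped by another gene of the count table and 18 have a named pseudogene. Among the overlapped are TIMM8B (by NKAPD1), TIMM13 (by TMPRSS9) and MTX1 (by THBS3), whose levels carry the same uncertainty.

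In total RNA, loss of YBX1 left the import and folding genes close to control levels. No member rose and 2 of 36 fell, both of them small or receptor subunits of the TOM complex, while 15.7% of all genes tested were called, 6.37% higher and 9.33% lower. The median change of the members was 0.01 on the log2 scale against -0.01 for all genes, and single changes ran from -0.17 to 0.25. Unadjusted p-values were under 0.05 for 7 members.

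TOMM7, a small subunit that stabilises the TOM complex, was at 64.3, 63.2, 61.3 and 63.6 CPM in sgLUC total and at 56.0, 55.9, 54.7 and 57.4 CPM in sgYBX1 total libraries. The groups did not overlap, and the change was -0.17 ± 0.04 (edgeR, adjusted p = 0.00245). TOMM22, the central receptor, was at 98.1, 96.8, 98.9 and 103 CPM with sgLUC and at 91.0, 89.9, 87.0 and 89.2 CPM with sgYBX1. These groups were also separate, with a change of -0.15 ± 0.04 (edgeR, adjusted p = 0.0048). Both changes were small, and neither was called when all 16 libraries shared 1 estimate of spread.

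GRPEL1, the nucleotide exchange factor of HSPA9, was not called although its sgLUC libraries lay between 76.6 and 78.2 CPM and its sgYBX1 libraries between 80.3 and 83.6 CPM (0.09 ± 0.04, edgeR, adjusted p = 0.107). Without the TMM factors 5 members were called, of which 3 were higher and 2 lower. Among all 12517 genes tested, 1402 were higher and 747 lower under that scaling. Without sgLUC total replicate 2, 7 members were called, with 1 higher and 6 lower, among the latter TOMM20 and SAMM50. With all libraries kept, the changes were -0.00 ± 0.04 for HSPA9, -0.07 ± 0.04 for TOMM20, 0.02 ± 0.04 for TOMM40 and -0.03 ± 0.04 for TIMM23. None of these was called.

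In polysomal RNA the same genes moved more, and mostly downwards. After loss of YBX1, 12 of 36 members fell, 2 rose and 22 did not pass the test. This is 33.3% lower and 5.56% higher, beside 10.0% and 11.3% of all genes, with 21.3% of all genes called in either direction. The median change was -0.23 against -0.03 for all genes, and 29 of 36 members lay below 0 against 52.7% of all genes. A coding length under 600 bases was found in 18 of the 36 members and in 1621 of 12455 genes. Those 1621 genes had a median change of -0.19. The members that rose were TIMM44 and HSPD1, both of the matrix, and the members that fell included 4 of 7 TOM subunits and 2 of 3 SAM subunits.

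**Figure D1:**
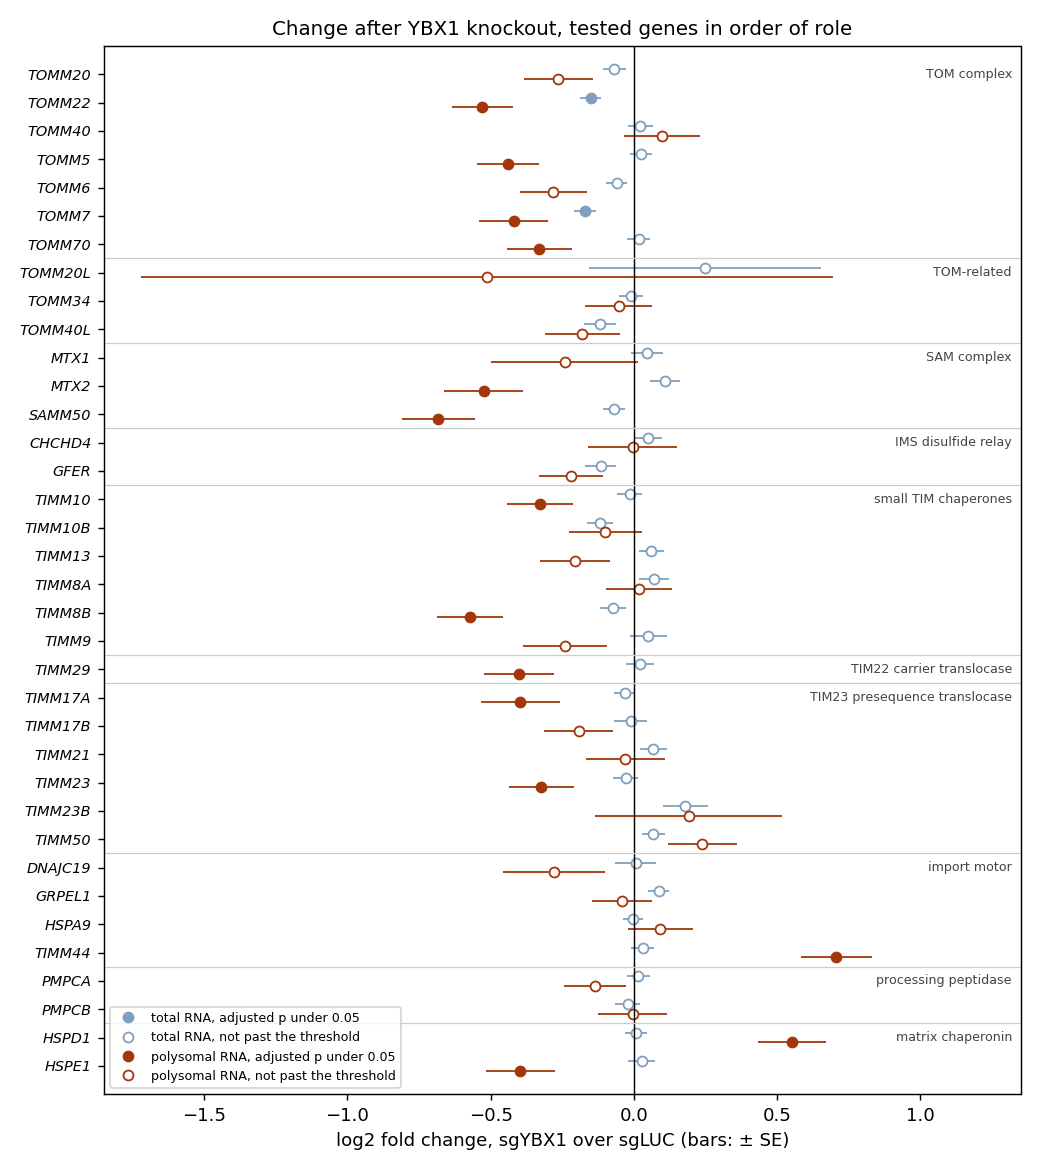
Log2 fold change of sgYBX1 over sgLUC with its SE for the 36 tested members in order of role, in total RNA (blue) and polysomal RNA (red), with filled points at an adjusted p under 0.05. Points in total RNA lie close to 0, while in polysomal RNA 12 filled points lie to the left and 2, TIMM44 and HSPD1, to the right.

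The count of polysomal calls depended on single libraries. It was 9 without sgLUC polysomal replicate 1 and 8 without sgLUC polysomal replicate 4, sgYBX1 polysomal replicate 3 or sgYBX1 polysomal replicate 4. Without the TMM factors 2 members rose and 18 fell, as the median of all genes then shifted by -0.15.

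TIMM44, the peripheral inner membrane protein that recruits the motor chaperone to the TIM23 channel, had the smallest p of any member. It lies at chr19:7926718-7943666 (GRCh38, as for all positions here). Polysomal levels were 285, 325, 261 and 206 CPM with sgLUC and 432, 442, 444 and 441 CPM with sgYBX1. Every sgYBX1 library exceeded every sgLUC library, and the level was 1.63-fold higher (0.71 ± 0.12, edgeR, adjusted p = 0.000163). In total RNA TIMM44 was at 93.8, 105, 94.3 and 99.3 CPM with sgLUC and at 97.8, 98.3, 101 and 104 CPM with sgYBX1, groups that overlapped (0.03 ± 0.04). The call in polysomal RNA was kept in all 15 alternatives run.

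HSPD1, the chaperonin that folds imported proteins, was at 1151, 989.7, 951 and 871 CPM in sgLUC polysomal and at 1409, 1428, 1424 and 1545 CPM in sgYBX1 polysomal libraries. The groups were separate, with a 1.47-fold difference (0.55 ± 0.12, edgeR, adjusted p = 0.00126) that was also kept in all 15 alternatives. In total RNA HSPD1 was at 912, 800.1, 896 and 868 CPM with sgLUC and at 878, 907, 860.0 and 848 CPM with sgYBX1, and these overlapped (0.01 ± 0.04).

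HSPE1, the co-chaperonin that caps the HSPD1 ring, moved the other way. The genes are neighbours on chromosome 2, HSPD1 at chr2:197486584-197500274 on the minus strand and HSPE1 at chr2:197500379-197503449 on the plus strand, with 104 bases between them. HSPE1 was at 147, 104, 134 and 154 CPM in sgLUC polysomal and at 108, 107, 99.5 and 93.7 CPM in sgYBX1 polysomal libraries. The groups overlapped through sgLUC replicate 2, and the change was -0.40 ± 0.12 (edgeR, adjusted p = 0.0168). The call was lost without sgLUC polysomal replicate 4, sgYBX1 polysomal replicate 3 or sgYBX1 polysomal replicate 4 (highest adjusted p = 0.0846). Total HSPE1 RNA was 37.9 ± 2.54 and 38.7 ± 1.48 CPM (SD, n = 4). The difference between the changes of the HSPD1 and HSPE1 mRNAs was not itself tested.

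HSPA9, the mitochondrial HSP70 that both pulls precursors in and helps fold them, did not pass the test. Its polysomal level was 487, 389, 392 and 393 CPM with sgLUC and 455, 449, 430.2 and 437 CPM with sgYBX1. Replicate 1 of sgLUC stood above all other libraries and the groups overlapped (0.09 ± 0.11, edgeR, adjusted p = 0.62). The other motor genes tested were GRPEL1 at -0.04 ± 0.11 and DNAJC19, a J-protein that stimulates HSPA9, at -0.28 ± 0.18, so TIMM44 was the 1 of 4 motor genes called.

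**Figure D2:**
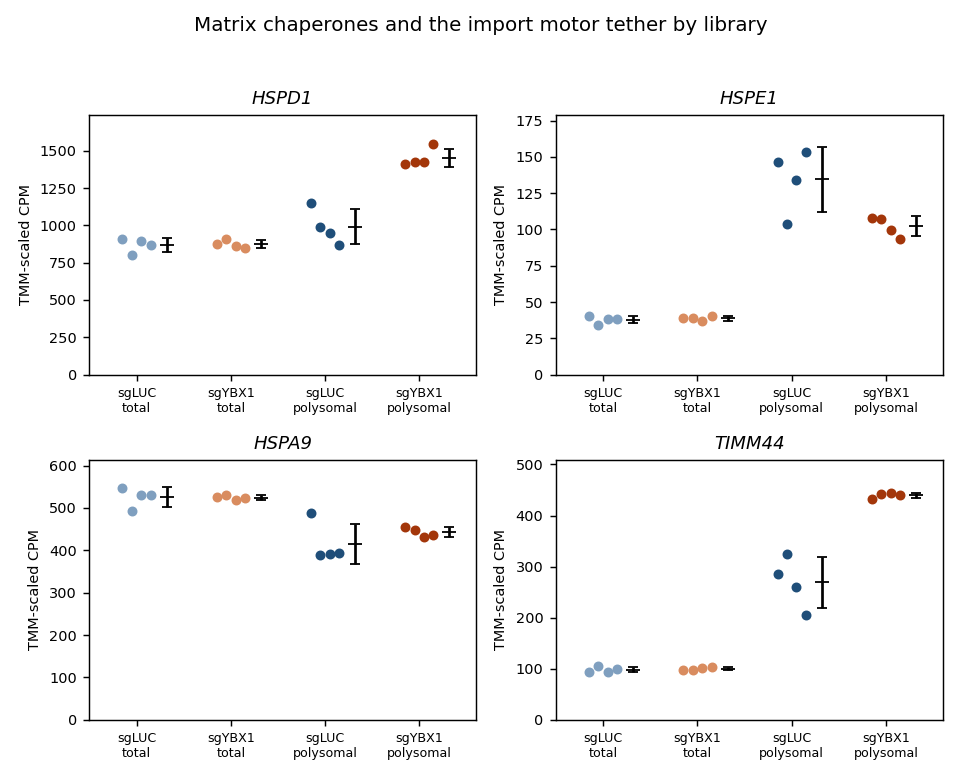
TMM-scaled CPM of HSPD1, HSPE1, HSPA9 and TIMM44 in each of the 16 libraries, with group mean and SD (n = 4) beside the points. In polysomal RNA the sgYBX1 libraries of TIMM44 (432 to 444 CPM) and HSPD1 (1409 to 1545 CPM) lie above all sgLUC libraries, those of HSPE1 lie below 3 of the 4 sgLUC libraries, and in total RNA the groups overlap for all 4 genes.

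The SAM complex gave the largest decrease. SAMM50, the barrel-shaped core of the complex, lies at chr22:43955442-43996529 and was at 78.1, 77.2, 60.9 and 75.5 CPM in sgLUC polysomal and at 51.9, 48.6, 34.8 and 46.4 CPM in sgYBX1 polysomal libraries. Replicate 3 was the lowest of both groups, and the groups did not overlap (-0.68 ± 0.13, edgeR, adjusted p = 0.000324). In total RNA SAMM50 was at 79.7, 73.6, 78.1 and 76.7 CPM with sgLUC and at 74.5, 72.9, 71.8 and 74.5 CPM with sgYBX1, with overlap and a change of -0.07 ± 0.04.

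MTX2, a SAM partner exposed on the cytosolic side, was at 20.3, 19.4, 23.9 and 21.5 CPM with sgLUC and at 15.6, 15.2, 13.8 and 14.6 CPM with sgYBX1 in polysomal RNA. These groups were also separate (-0.52 ± 0.14, edgeR, adjusted p = 0.00656), while in total RNA they overlapped. There MTX2 was at 21.5, 19.7, 22.1 and 21.0 CPM with sgLUC and at 23.6, 21.5, 21.7 and 24.2 CPM with sgYBX1 (0.11 ± 0.05). MTX1, the other metaxin, had only 3.95 ± 1.22 CPM in sgLUC polysomal libraries (SD, n = 4), and its change of -0.24 ± 0.26 did not pass the test.

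Among TOM subunits, TOMM22 was at 262, 241, 226 and 243 CPM in sgLUC polysomal and at 169, 173, 173 and 159 CPM in sgYBX1 polysomal libraries. The groups lay far apart relative to their spread (-0.53 ± 0.11, edgeR, adjusted p = 0.000699). TOMM5, a small subunit of the channel complex, was at 138, 129, 130.1 and 153 CPM with sgLUC and at 101, 111, 98.6 and 95.8 CPM with sgYBX1. It fell by 0.44 ± 0.11 on the log2 scale without overlap of groups (edgeR, adjusted p = 0.00374). Its total RNA was at 78.0, 74.6, 73.5 and 80.2 CPM with sgLUC and at 77.6, 78.3, 75.3 and 80.8 CPM with sgYBX1, which overlapped. TOMM7 (-0.42 ± 0.12) and the receptor TOMM70 (-0.33 ± 0.11), which binds cytosolic chaperones carrying precursors, fell as well. The TOMM7 call was lost without sgLUC polysomal replicate 1 or sgYBX1 polysomal replicate 3. The TOMM70 call was lost in 7 of 15 alternatives, which were the fit with a replicate block and the removal of sgLUC polysomal replicate 1 or 4 or of any sgYBX1 polysomal library.

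TOMM20 and TOMM40 did not pass the test. TOMM20, the presequence receptor, was at 189, 137, 144 and 193 CPM in sgLUC polysomal and at 135, 144, 142 and 130 CPM in sgYBX1 polysomal libraries, with replicates 1 and 4 of sgLUC high and the rest alike (-0.26 ± 0.12, edgeR, adjusted p = 0.12). It was called lower in 4 of 15 alternatives, which were the 16-library fit, the fit without TMM factors and the removal of sgLUC polysomal replicate 2 or 3. TOMM40 was at 404, 667, 627 and 503 CPM with sgLUC and at 602, 612, 581 and 561 CPM with sgYBX1, so the sgLUC libraries spread on both sides of the sgYBX1 ones (0.10 ± 0.13, edgeR, adjusted p = 0.654). TOMM6 gave -0.28 ± 0.12 and was not called (edgeR, adjusted p = 0.0886), although its groups did not overlap. It was called lower in 2 of 15 alternatives, the 16-library fit and the fit without TMM factors.

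In the intermembrane space, 2 of 6 small TIM chaperones fell. TIMM8B was at 206, 189, 184 and 239.7 CPM in sgLUC polysomal and at 151, 130.2, 126 and 143 CPM in sgYBX1 polysomal libraries, with no overlap (-0.57 ± 0.11, edgeR, adjusted p = 0.000622). Its paralog TIMM8A was at 69.4 ± 4.88 and 70.3 ± 8.90 CPM (SD, n = 4), a change of 0.02 ± 0.12. TIMM10 fell by 0.33 ± 0.11. TIMM9, with which it forms a hexamer, gave -0.24 ± 0.15 and was not called. Differences between the changes of these chaperone genes were not tested. In total RNA TIMM8B was at 36.8, 36.6, 34.7 and 39.2 CPM with sgLUC and at 34.5, 34.6, 34.3 and 36.6 CPM with sgYBX1, and the groups overlapped. The TIMM10 call was lost in 7 of 15 alternatives, among them the removal of sgLUC polysomal replicate 1, 2 or 4 or of sgYBX1 polysomal replicate 2, 3 or 4. The disulfide relay genes CHCHD4 and GFER, an import oxidoreductase and the oxidase that recharges it, gave -0.00 ± 0.16 and -0.22 ± 0.11 and were not called.

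**Figure D3:**
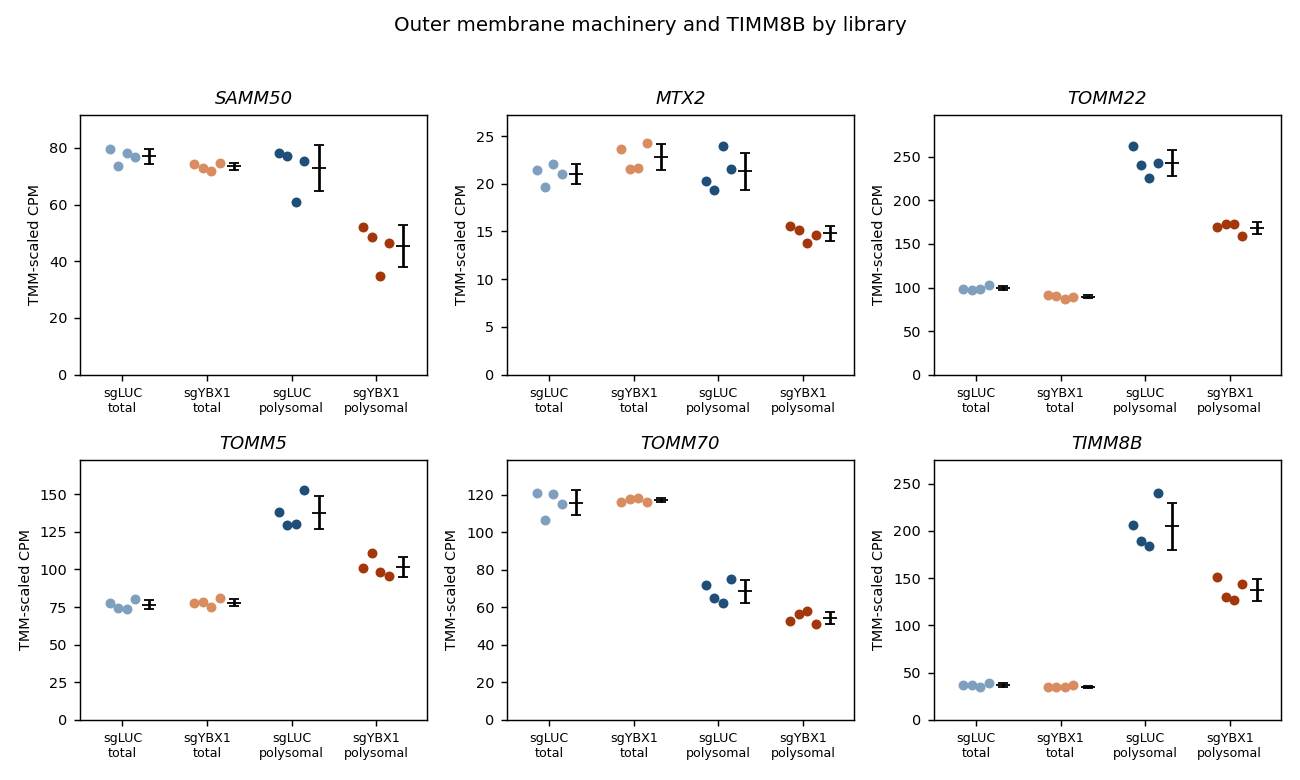
TMM-scaled CPM of SAMM50, MTX2, TOMM22, TOMM5, TOMM70 and TIMM8B in each of the 16 libraries, with group mean and SD (n = 4). In polysomal RNA all sgYBX1 libraries of the 6 genes lie below all sgLUC libraries, and in total RNA the groups overlap for all but TOMM22.

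At the inner membrane, the TIM23 channel subunit TIMM23 was at 70.7, 72.5, 68.8 and 64.6 CPM in sgLUC polysomal and at 60.5, 58.1, 54.0 and 48.3 CPM in sgYBX1 polysomal libraries. The groups did not overlap, but the change of -0.32 ± 0.11 was close to the threshold (edgeR, adjusted p = 0.0396) and the call was lost in 9 of 15 alternatives, among them the removal of any polysomal library but sgYBX1 replicate 1. TIMM17A, its channel partner, fell by 0.40 ± 0.14 with overlapping groups, a call lost in 7 of 15 alternatives, 5 of them removals of 1 library (sgLUC polysomal replicate 1 or 4, sgYBX1 polysomal replicate 2, 3 or 4). The paralog TIMM17B gave -0.19 ± 0.12 and was not called, and the difference between the paralogs was not tested. TIMM50, the receptor of the complex, gave 0.24 ± 0.12 and TIMM21 gave -0.03 ± 0.14, both not called. TIMM29, a subunit of the carrier translocase, fell by 0.40 ± 0.12 and its call was lost without sgLUC polysomal replicate 4 or sgYBX1 polysomal replicate 4. The processing peptidase genes PMPCA (-0.14 ± 0.11) and PMPCB (-0.00 ± 0.12) were not called.

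Whether the polysomal change exceeded the change in total RNA was tested as their difference over all 16 libraries. It was called for 10 of 36 members, higher for TIMM44 and HSPD1 and lower for 8, beside 16.6% of all genes called, 9.77% higher and 6.81% lower. All 10 were among the 14 called in polysomal RNA, a comparison with which it shares its libraries. The median difference was -0.21 against -0.04 for all genes. Without the TMM factors, 2 were higher and 17 lower, with the median of all genes shifted by -0.20. The fit pooled the spread of both fractions (biological coefficient of variation 0.119), which lies below that of polysomal RNA alone (0.188). For some members, among them HSPD1, MTX2, TOMM5 and TOMM22, the SE of the difference was below that of the polysomal change alone. Their errors may therefore be understated.

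Among those called, the largest differences were 0.68 ± 0.13 for TIMM44 (edgeR, adjusted p = 0.00177), -0.64 ± 0.13 for MTX2 (edgeR, adjusted p = 0.00193) and -0.61 ± 0.14 for SAMM50 (edgeR, adjusted p = 0.00473). HSPD1 gave 0.54 ± 0.11, TIMM8B -0.50 ± 0.12, TOMM5 -0.46 ± 0.10 and TOMM22 -0.38 ± 0.09. Each of these 7 kept its call in all 22 alternatives run. HSPE1 (-0.43 ± 0.14), TIMM29 (-0.42 ± 0.13) and TOMM70 (-0.35 ± 0.10) were called as well, but lost the call in 10, 7 and 6 of the 22, each time by removal of 1 library, and the removal of sgLUC total replicate 2, sgLUC polysomal replicate 4 or sgYBX1 polysomal replicate 4 ended the call of all 3. TOMM7, which fell in both fractions, gave -0.25 ± 0.13 for the difference and was not called.

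A further 35 genes of the same pathway, among them inner membrane insertases and peptidases, matrix proteases, cristae-organising subunits and cytosolic chaperones that deliver precursors, were counted alongside. Of 34 tested, 1 fell and none rose in total RNA. In polysomal RNA 3 rose and 8 fell, beside 11.3% higher and 10.0% lower among all genes, with a median of -0.20 against -0.03. For the difference 2 were higher and 5 lower, beside 9.77% and 6.81% of all genes, with a median of -0.22 against -0.04. HSP90AA1, a cytosolic chaperone that hands precursors to TOMM70, was at 23240 ± 5491 CPM in sgLUC polysomal and 42088 ± 4453 CPM in sgYBX1 polysomal libraries (SD, n = 4), a change of 0.86 ± 0.15 (edgeR, adjusted p = 0.000139). In total RNA it was at 2305 ± 126 and 2418 ± 73.4 CPM. AFG3L2, a subunit of the inner membrane protease that degrades misfolded proteins, rose from 107 ± 8.71 to 157 ± 13.4 CPM in polysomal RNA (0.56 ± 0.11, edgeR, adjusted p = 0.000595). Among the 8 that fell in polysomal RNA were the chaperone TRAP1 (-0.44 ± 0.11), the protease subunit CLPP (-0.48 ± 0.12) and the insertase OXA1L (-0.54 ± 0.14), chosen for mention after their values were seen. Another of the 8, also chosen after the values were seen, was the cytosolic chaperone HSPA8. Opposite to HSP90AA1, it fell from 925 ± 183 to 682 ± 79.4 CPM in polysomal RNA (-0.44 ± 0.13, edgeR, adjusted p = 0.0175). The HSPA8 difference of -0.41 ± 0.15 was not called. The J-proteins DNAJA1 (-0.08 ± 0.12) and DNAJA2 (0.00 ± 0.11) were not called in polysomal RNA. The differences of AFG3L2 and HSP90AA1 were 0.53 ± 0.11 (edgeR, adjusted p = 0.00193) and 0.79 ± 0.16 (edgeR, adjusted p = 0.0022). In total RNA the 1 gene called was IMMP1L, an inner membrane peptidase subunit, which was low at 2.99 ± 0.251 and 2.26 ± 0.374 CPM (-0.41 ± 0.13, edgeR, adjusted p = 0.026). The next by p in total RNA was SPG7, the partner of AFG3L2 in the same protease, at 0.11 ± 0.04, which was not called (edgeR, adjusted p = 0.0712).

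Polysomal and total RNA were also compared within each guide. Without the TMM factors the median of all genes shifted by -0.85 in sgLUC and by -1.05 in sgYBX1 cells, so directions between fractions hold relative to the other genes only. In sgLUC cells 20 members were higher and 8 lower in polysomal RNA, beside 81.7% of all genes called, 39.2% higher and 42.5% lower, and without the TMM factors these became 14 and 17. The median of the members was 0.70 against -0.08 for all genes, a distance of 0.77. In sgYBX1 cells 20 were higher and 12 lower, beside 83.0% of all genes called, 39.9% higher and 43.1% lower, and without the TMM factors 11 and 22. The 28 genes called in sgLUC cells were also called in sgYBX1 cells, where SAMM50, MTX2, TIMM17A and TIMM23 passed as well, and only SAMM50 and MTX2 of these 4 passed the test of the difference given before.

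The highest polysomal levels over total were those of 3 small TIM chaperones. TIMM13 was at 166, 181, 164 and 181 CPM in sgLUC total and at 1131, 1521, 1404 and 1289 CPM in sgLUC polysomal libraries, a 7.72-fold difference (2.95 ± 0.09, edgeR, adjusted p = 4.71e-18). The sgLUC groups lay far apart. TIMM10 was at 29.4, 29.5, 29.0 and 29.6 CPM in total and at 188, 172, 149 and 178 CPM in polysomal libraries (2.55 ± 0.09, edgeR, adjusted p = 1.33e-17). TIMM8B followed at 2.48 ± 0.09 with the library values given before. TIMM9 and TIMM10B of the same family lay apart from them, at 0.10 ± 0.11 and -0.25 ± 0.09.

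The lowest were MTX1, TIMM23B and TIMM21. MTX1 was at 13.1, 13.2, 12.7 and 13.4 CPM in sgLUC total and at 3.22, 4.77, 5.17 and 2.63 CPM in sgLUC polysomal libraries (-1.73 ± 0.16, edgeR, adjusted p = 4.8e-10). TIMM23B was at 6.11, 7.87, 7.33 and 6.44 CPM in total and at 1.48, 1.83, 3.51 and 2.08 CPM in polysomal libraries (-1.64 ± 0.22, edgeR, adjusted p = 2.82e-07). TIMM21, which links TIM23 to respiratory chain assembly, was at 41.9, 37.6, 44.1 and 41.9 CPM in total and at 20.4, 19.9, 18.5 and 21.1 CPM in polysomal libraries (-1.05 ± 0.09, edgeR, adjusted p = 1.3e-10). No polysomal library of the 3 genes reached a total one. All 6 directions stayed the same without the TMM factors. TIMM23, the near-identical copy of TIMM23B, was at -0.04 ± 0.08.

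TOMM40 was higher (1.16 ± 0.11) and TOMM20 lower (-0.43 ± 0.09) in sgLUC polysomal RNA, and HSPA9 was lower (-0.34 ± 0.07). HSPE1 was at 1.83 ± 0.10. HSPD1 was near 0 at 0.19 ± 0.08 and turned to -0.66 without the TMM factors, with the call lost in 9 of 23 alternatives, 7 of them removals of 1 library, and SAMM50 was at -0.08 ± 0.10. In sgYBX1 cells HSPD1 was at 0.73 ± 0.08, which became -0.32 without the TMM factors, SAMM50 at -0.69 ± 0.10 and TIMM44 at 2.13 ± 0.10, beside 1.46 ± 0.10 for TIMM44 in sgLUC cells.

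**Figure D4:**
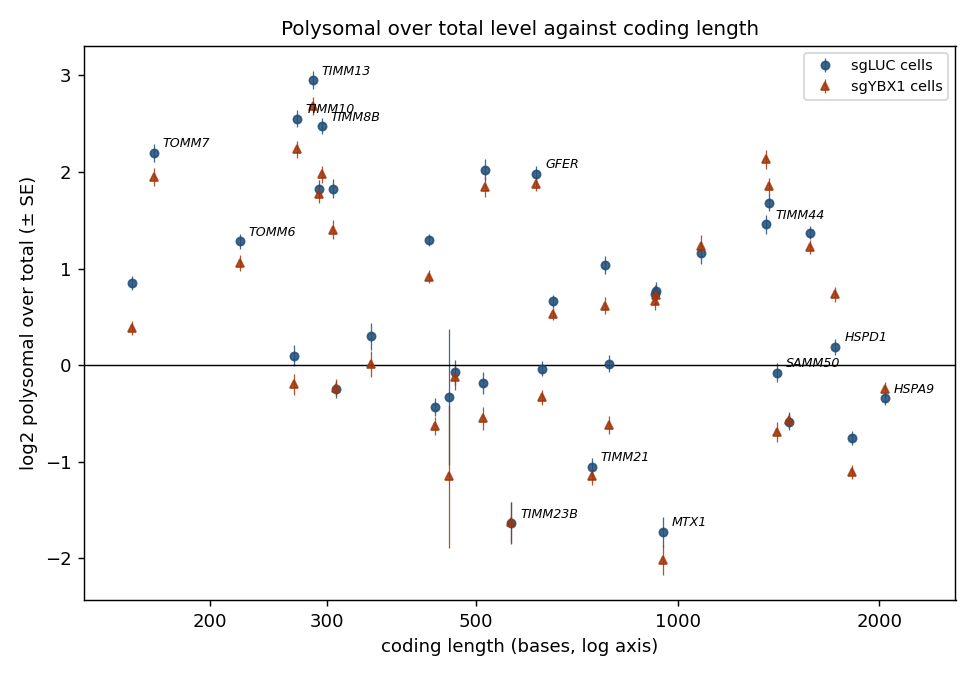
Log2 level in polysomal over total RNA (± SE) of the 36 tested members against coding length in bases (log axis), for sgLUC (circles) and sgYBX1 (triangles) cells, with TMM scaling. TIMM13, TIMM10 and TIMM8B stand highest at the short end, and MTX1, TIMM23B and TIMM21 lowest.

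Coding length moved with these values in sgLUC cells, and less so among the members in sgYBX1 cells. With a division at 600 bases, the 18 shorter members had a median polysomal over total level of 1.06 in sgLUC cells. The 18 longer ones had a median of 0.42. Over all genes the medians were 0.86 for the 1621 shorter and -0.21 for the 10834 longer ones. Pearson's r with the logarithm of coding length was -0.38 over the 36 members and -0.26 over 12455 genes, points that share libraries and scaling. In sgYBX1 cells the shorter members had a median of 0.65 and the longer ones 0.57, beside 0.75 and -0.21 for all genes. There r was -0.27 over the members and -0.19 over all genes. For the polysomal change after loss of YBX1 the shorter members had a median of -0.28 and the longer ones -0.09, beside -0.19 and -0.00 for all genes, with r = 0.45 over the members and 0.18 over all genes. The part of coding length in the decreases was not tested.

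The deposited gene effect scores of a public CRISPR screen of MOLM13, in which lower values mean stronger loss of cells with the gene knocked out, were available for all 37 members. Their median was -0.443 against -0.0533 over 18333 genes, and 16 members, or 43.2%, lay below -0.5 against 11.9% of all genes. HSPE1 was lowest at -2.22, followed by HSPA9 at -1.58, PMPCB at -1.40, TIMM8A at -1.34 and TIMM10 at -1.33. Of the 14 members called in polysomal RNA 7 lay below -0.5, as did 9 of the 22 tested members that were not called. TIMM44 was at -0.758, HSPD1 at -0.876, SAMM50 at -0.540 and TOMM22 at -1.26.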

How the data were processed

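The authors deposited read counts per gene for the 16 libraries, with no normalization. Per the labels, reads were processed with Trimmomatic 0.36.5, STAR 2.7.8a and featureCounts 2.0.1 on GRCh38; the annotation and strand setting are not given in the sources used here. Of counts from 1 to 39, 63.5% in total and 60.8% in polysomal RNA were even, and the cause was not tested. Rows were keyed by Entrez identifier, whose mean counts tracked the authors' means across 17521 genes (r = 0.993), and members were found by symbol in the authors' table. The deposited gene effect score was used as given. The deposited log2 fold changes and p-values of the authors' own DESeq2 1.30.0 comparisons were not used.

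Genes were kept with filterByExpr over the 4 groups. TMM factors came from all 16 libraries, and edgeR 4.0.16 quasi-likelihood F tests (robust, two-sided, R 4.3.3) were fitted to the 8 libraries of a fraction for each knockout comparison and to all 16 for the rest. The fits to all 16 pooled the spread of both fractions. Alternatives used DESeq2 1.42.0, limma 3.58.1, other scaling, no filter, a replicate block and each library left out. Tests were checked on simulated data. Members, lists and tests were chosen with earlier results of these data known. Values per library are given for the 6 called members with the smallest p per knockout comparison, 3 highest and 3 lowest between fractions, and HSPA9, HSPD1, HSPE1, TOMM20, TOMM40, TIMM23 and SAMM50, and for the further pathway genes the 2 with the smallest p are named. For HSPA9, HSPE1, TOMM20, TOMM40 and TIMM23 the library values in the text are those of polysomal RNA only. Further pathway genes chosen after their values were seen are named as such. Positions come from RefSeq GRCh38.p14 and lengths from principal transcripts of GENCODE 29. p-values measure the spread between replicate cultures. Tests over both fractions treated all libraries as independent, although same-numbered total and polysomal libraries may come from the same culture. Figures were drawn with matplotlib 3.10.9. 1 marker of another cell type is not reported here.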

Additional observations from a re-analysis of the deposited data

Results flagged for a closer look

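Among 148 groups of 4 libraries checked (36 members and YBX1, 4 groups each), 7 held a library far from the other 3, where chance gives about 1 in 20. These were CHCHD4 in sgLUC total replicate 1 at 30.8 CPM (others 26.8 to 27.3), GFER in sgYBX1 polysomal replicate 1 at 65.3 CPM (others 58.6 to 59.5) and HSPA9 in sgLUC polysomal replicate 1 at 487 CPM (others 389 to 393). HSPD1 in sgYBX1 polysomal replicate 4 was at 1545 CPM (others 1409 to 1428) and SAMM50 in sgLUC polysomal replicate 3 at 60.9 CPM (others 75.5 to 78.1). TIMM50 and TIMM8B were high in sgYBX1 total replicate 4, at 171 CPM (others 156 to 158) and 36.6 CPM (others 34.3 to 34.6).

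The change after loss of YBX1 differed between fractions for 10 members by the test of the difference. The polysomal minus total log2 change was 0.68 for TIMM44 and 0.54 for HSPD1. It was -0.64 for MTX2, -0.61 for SAMM50, -0.50 for TIMM8B, -0.46 for TOMM5, -0.43 for HSPE1, -0.42 for TIMM29, -0.38 for TOMM22 and -0.35 for TOMM70.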

How the results depend on the processing

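In total RNA the 2 member calls became 5 without TMM factors and 0 in the 16-library edgeR fit (1 member at an unadjusted p under 0.05), were 3 by the DESeq2 Wald test, and ranged from 2 to 7 with 1 library left out. Over all 12517 genes, the 797 higher and 1168 lower became 1402 and 747 without TMM factors. They became 59 and 79 in the 16-library fit. In polysomal RNA the 14 member calls ranged from 8 to 14 with 1 library left out and were 18 in the 16-library fit and 20 without TMM factors. Over all genes, the 1415 higher and 1253 lower became 2152 and 2479 in the 16-library fit. Without TMM factors they became 925 and 2598. For the polysomal minus total change the 10 member calls became 19 without TMM factors and 7 to 13 with 1 library left out. Over all genes, the 1223 higher and 852 lower became 674 and 2675 without TMM factors. Without TMM factors the median of the members was -0.37 in polysomal RNA and -0.41 for the difference, and between fractions it turned to -0.16 in sgLUC and -0.48 in sgYBX1 cells. TIMM44, HSPD1, SAMM50, MTX2, TOMM22, TOMM5 and TIMM8B kept their polysomal calls and directions in all 15 alternatives. The labels call the total libraries input and number them as the polysomal ones, but do not say whether a shared number means a shared culture. The correlations of same-numbered deviations over 6556 genes did not all exceed 0.1 in any comparison. They ran from -0.34 to 0.43 between guides in total RNA (over 0.1 in 3 of 4 pairs) and from -0.27 to 0.22 in polysomal RNA (1 of 4), and between fractions from -0.22 to 0.58 in sgLUC (2 of 4) and from -0.13 to 0.14 in sgYBX1 cells (1 of 4), so the samples were not treated as paired. In each comparison 1 of 4 samples correlated best with its own number. A fit with the replicate number as a block gave 2 calls in total RNA and 13 in polysomal RNA. For comparisons over both fractions the block was the guide and replicate number together. That fit gave 10 calls for the difference, 28 between fractions in sgLUC and 32 in sgYBX1 cells.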
